A study of Mus musculus with 4 samples.

Results

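The thin filament of the sarcomere was examined through 10 genes of actin, troponin, tropomyosin and tropomodulin, chosen by name: Actc1, Acta1, Tnni1, Tnni3, Tnnt1, Tnnt2, Tnnc1, Tpm1, Tpm2 and Tmod1. They were matched by RefSeq accession to 15 of the 39429 probes of the array, against 20886 named genes in all. The RNA was that of cardiomyocytes taken from the hearts of male mice aged 10 weeks, which carried Cre under the αMHC promoter and a tetO cassette of the OSKM reprogramming factors (Oct4, Sox2, Klf4 and Myc), a cross that control and treated mice shared. Control mice received PBS and treated mice received doxycycline, in both cases for 2 days, and each group was measured on 2 single-colour arrays. No array came from mice given doxycycline without the cassette, so drug and factors cannot be told apart. All 4 arrays lay on 1 slide, with the control arrays on adjoining positions and the doxycycline arrays on the others, so position and treatment cannot be told apart either. Nothing in the labels says that arrays of a group came from separate animals, and the p-values then measure only how far these samples spread, which may be technical.

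The thin filament is a polymer of actin with a tropomyosin strand along it and a troponin complex at regular intervals. Calcium binding to troponin C moves troponin I and troponin T, tropomyosin shifts, and myosin can then reach actin. Heart muscle replaces several of these proteins as it matures. Slow skeletal troponin I (Tnni1) gives way to cardiac troponin I (Tnni3), and skeletal α-actin (Acta1), slow skeletal troponin T (Tnnt1) and β-tropomyosin (Tpm2) are more prominent in the developing heart, while cardiac α-actin (Actc1), cardiac troponin T (Tnnt2) and α-tropomyosin (Tpm1) serve the adult mouse ventricle. Cardiac troponin C (Tnnc1) is shared with slow skeletal muscle, and tropomodulin 1 (Tmod1) caps the pointed end of the filament.

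The promoters of both sarcomeric actin genes are shown because the actins are one of the isoform pairs compared below, and because the level of their known regulator SRF was measured on the same arrays. SRF binds the CArG box, a known control element of muscle actin genes. Both sequences are RefSeq's, of build GRCm38.p6, and run 5′ to 3′ through the annotated start. Capitals mark the CArG box and, in Acta1, the MCAT motif CATTCC that TEAD factors bind.
Actc1, chr2:114052826-114053125, minus strand: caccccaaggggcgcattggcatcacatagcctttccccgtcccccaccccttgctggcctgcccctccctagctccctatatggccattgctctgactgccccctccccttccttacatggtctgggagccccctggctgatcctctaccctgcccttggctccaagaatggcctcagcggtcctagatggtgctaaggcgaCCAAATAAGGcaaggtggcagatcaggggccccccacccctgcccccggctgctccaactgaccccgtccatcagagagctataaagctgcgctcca
Acta1, chr8:123894726-123895025, minus strand: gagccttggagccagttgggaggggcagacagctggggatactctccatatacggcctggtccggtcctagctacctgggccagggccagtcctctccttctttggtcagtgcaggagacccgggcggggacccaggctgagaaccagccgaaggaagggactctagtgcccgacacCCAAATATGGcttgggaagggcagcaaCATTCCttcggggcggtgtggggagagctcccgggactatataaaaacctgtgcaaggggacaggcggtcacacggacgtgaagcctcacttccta

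The CArG box lay at -47 to -38 in Actc1 and at -73 to -64 in Acta1, counted from the annotated start. The box, CC and GG around 6 bases of A or T, was searched on both strands, and a match on both at the same place was counted once. Among 32851 mouse promoters 1.63% held one, and of the 12 promoters listed for the 10 genes these were the 2 that did. The motif CATTCC, on either strand, was in 5 of the 12 promoters (Acta1, Tnnt2, Tnnc1, Tpm1 and Tmod1) and in 14.7% of all promoters. The sequence CACGTG, an E-box that MYC and MAX bind, was in 0 of the 12 and in 7.15% of all promoters. TATAAA, the TATA box sequence, was in 3 of the 12 (Actc1, Acta1 and Tnnt1) and in 13.6% of all promoters. It lay at 34 to 39 in Actc1 and at -7 to -2 in Acta1, and every position given holds only for the annotated start. A match is a description of the letters in this window and not a measured binding site.

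The arrays were of uneven quality. The 75th percentile of processed signal ran from 112 on control array 1 to 248 on doxycycline array 1, and the median coefficient of variation of repeated spots was 10.99% on control array 1 against 4.02% to 4.81% elsewhere. Levels are therefore given as log2 signal minus the 75th percentile of the array, a scale on which 0 is that percentile, and they can be compared between arrays but not between probes. Each difference is the doxycycline mean less the control mean, with its standard error (SE) from a limma fit to all probes, n = 2 arrays per group. Control array 1 also had a different balance of cell markers. The summed level of 10 heart muscle markers, in multiples of the 75th percentile, was 4120 and 4530 in control and 3150 and 3850 after doxycycline, with none of the 10 below background. That sum is mostly Myh6, Myl2, Myl3 and Mb. Over single heart muscle markers the median difference was 0.07, with 6 of 10 higher after doxycycline. Control array 1 minus control array 2 had a median of -0.94 over these markers. By contrast, 7 endothelial markers summed to 248 on control array 1 and 75.7 on control array 2, against 54.8 and 93.8 after doxycycline. That sum is mostly Egfl7 (difference -1.15), and over single endothelial markers the median difference was -0.21, with 2 of 7 higher after doxycycline. The 9 fibroblast markers summed to 218 and 67.1 against 77.6 and 83.5. That sum is mostly Dcn (difference -0.32). Over single fibroblast markers the median difference was -2.49, with 0 of 9 higher after doxycycline and 0 past the test. These 9 include Postn, which was detected on the control arrays alone, so that its direction was set by the filter. Further, 6 macrophage markers (of 7, Cd68 having no named probe here) to 18.0 and 6.23 against 4.43 and 5.28, and the 3 red cell markers detected to 93.8 and 18.1 against 11.6 and 13.8. In such bulk RNA, fewer cells of a type and less RNA per cell cannot be told apart. The fast skeletal muscle myosins Myh1, Myh2 and Myh4, with Actn3, Mylpf and Myog, were below the detection threshold on every array.

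Of the 15 probes, 14 for 9 genes were well above background on all 4 arrays and were tested, and the Tnni1 probe was well above background on none. By limma with Benjamini-Hochberg adjustment over 20092 probes, 0 of the 14 passed at an adjusted p under 0.05, where the background was 0% of all probes. Without doxycycline array 2 there were also 0 of 14, against 0.458% of all probes. At an unadjusted p under 0.05 there were also 0 of 14, against 6.38% of all probes. Of the 14 differences 9 lay below 0 and 5 above, from -0.96 to 0.49, with a median of -0.23 against -0.04 over all probes. That split turned with the scaling: against the median of each array in place of its 75th percentile, 10 of 14 lay above 0 with a median of 0.12, a setting that moved the median of all probes by 0.35. Scaled to the heart muscle markers, 4 of 14 lay above 0 with a median of -0.39, and without control array 1 this held for 2 of 14. For 4 of the 14 the arrays of the groups were fully separate, with doxycycline lower for 3 (19.4% of all probes) and higher for 1 (15.3%). The SEs, 0.40 to 0.68, were as large as most of the differences.

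**Figure D1:**
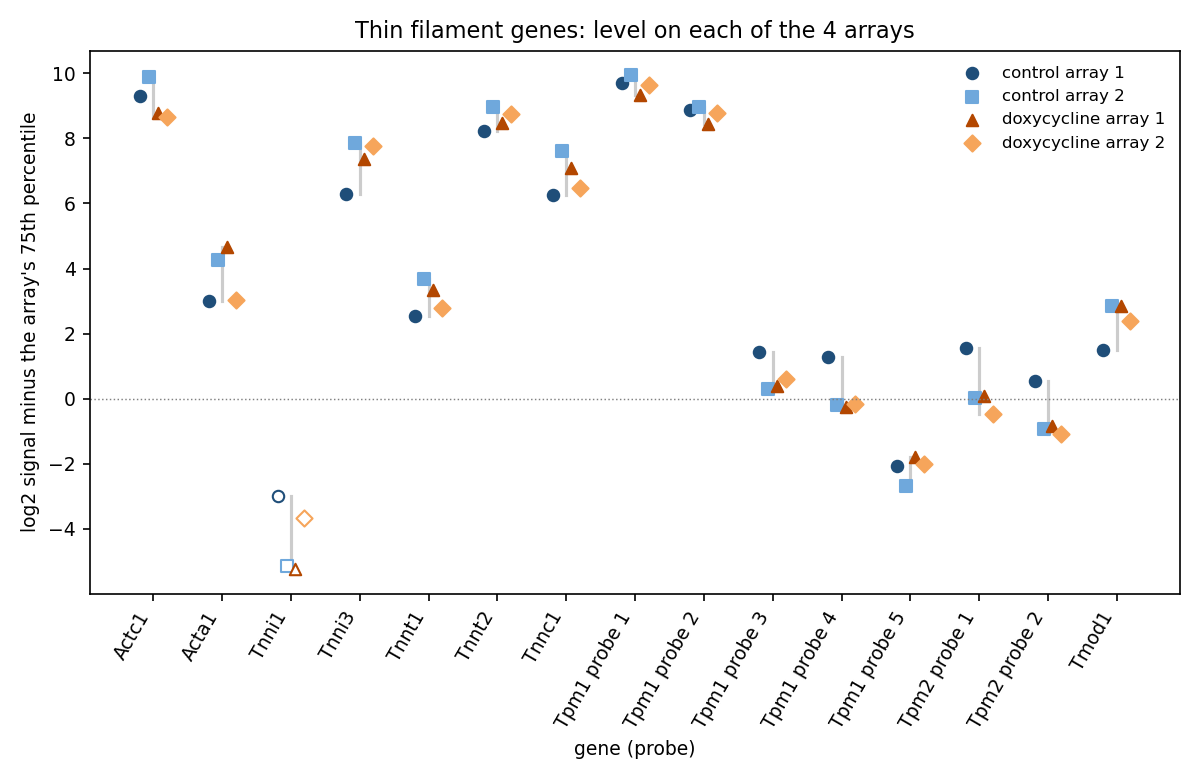
Level of each probe (log2 signal minus the 75th percentile of the array, vertical axis) on the 2 control and 2 doxycycline arrays (symbols), by gene along the horizontal axis. Open symbols mark Tnni1, which stayed under the detection threshold throughout. For most genes the 4 arrays are interleaved, and Actc1 is the gene with both doxycycline arrays clearly under both control arrays.

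Cardiac α-actin, Actc1, the main sarcomeric actin of the adult heart, was the member with the smallest p. Its level was 9.29 and 9.88 in control and 8.77 and 8.67 with doxycycline. Both doxycycline arrays lay below both control arrays, and the doxycycline pair was closer together than the control pair. The difference was -0.87 ± 0.42 (SE, 95% interval -1.87 to 0.14, 1.82-fold lower) with an adjusted p of 0.855, and 9.38% of all probes had a smaller p. The direction was the same in each of 19 alternative analyses, where the difference ran from -1.16 to -0.52 and passed in 0. Filters, probe summaries, variance options, array weights, blocks and the unadjusted rule leave the difference of a gene with 1 probe at -0.87. Its direction could therefore change only with other scaling or background correction, or with 1 array left out. Unscaled, its processed signal was 70456 and 160824 for control, against 108265 and 78488 for doxycycline, so that the groups overlapped before scaling and were separate after it.

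Skeletal α-actin, Acta1, the actin that heart muscle uses before birth and under load, had levels of 3.01 and 4.26 in control against 4.65 and 3.05 with doxycycline. The highest and the third highest values were thus from doxycycline arrays, and the groups overlapped. The difference was 0.21 ± 0.68 (SE, 95% interval -1.42 to 1.84, adjusted p = 0.987). It was 1.02 without doxycycline array 2 and 0.84 without control array 2, but -0.41 without control array 1 and -0.59 without doxycycline array 1. Set within each array against Actc1, the change in the Acta1 to Actc1 ratio was 1.08 log2 units after doxycycline, while the ratio differed by 1.51 between the doxycycline arrays and by -0.67 from control array 2 to control array 1. An exact permutation test over the 4 arrays gave a two-sided p of 0.667, and the smallest p it can give with 2 arrays against 2 is 0.333. The actins are close in coding sequence, and whether either probe also detects the other actin's RNA was not tested, because probe sequences were not used here.

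Cardiac troponin I, Tnni3, the inhibitory subunit of the adult complex, had levels of 6.30 and 7.87 in control against 7.37 and 7.77 with doxycycline. Control array 1 stood below the other 3 arrays, which lay close together. The difference was 0.49 ± 0.59 (SE, adjusted p = 0.956), and it was -0.30 without control array 1 and 1.27 without control array 2. Its fetal counterpart Tnni1 gave processed signals of 14.3 and 4.83 for control, against 6.62 and 15.3 for doxycycline. None of the 4 was well above background, so Tnni1 gives no fold and no ratio to Tnni3, and a fetal troponin I signal was not detected on any of these arrays.

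Cardiac troponin T, Tnnt2, which ties the complex to tropomyosin, read 8.23 and 8.96 in control and 8.48 and 8.75 after doxycycline. Both doxycycline values fell between the control values. The difference was 0.03 ± 0.44 (SE, 95% interval -1.03 to 1.08, adjusted p = 0.997). Leaving out control array 1 gave -0.34, leaving out doxycycline array 2 gave -0.11, and scaling to the heart muscle markers gave -0.13. Slow skeletal troponin T, Tnnt1, read 2.54 and 3.69 in control and 3.35 and 2.79 after doxycycline, again with both doxycycline values inside the control range. Its difference was -0.04 ± 0.52 (SE, 95% interval -1.30 to 1.21, adjusted p = 0.996). That sign changed without control array 2 (0.53) and without doxycycline array 2 (0.23), and likewise with normexp background correction (0.07) and median scaling (0.30). The change in the Tnnt1 to Tnnt2 ratio was -0.07 log2 units (exact permutation p = 1), against gaps of -0.42 between the control arrays and 0.82 between the doxycycline arrays. Both intervals reach past 1 log2 unit on either side of 0, so equality was not shown.

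Cardiac and slow skeletal troponin C, Tnnc1, the calcium sensor, read 6.25 and 7.62 in control and 7.10 and 6.46 after doxycycline. Here too both treated arrays lay between the control arrays. The difference was -0.15 ± 0.57 (SE, 95% interval -1.52 to 1.21, adjusted p = 0.989). It was -0.84 without control array 1 and 0.53 without control array 2, and it was above 0 without doxycycline array 2 (0.17), with normexp correction (0.04) and with median scaling (0.19).

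**Figure D2:**
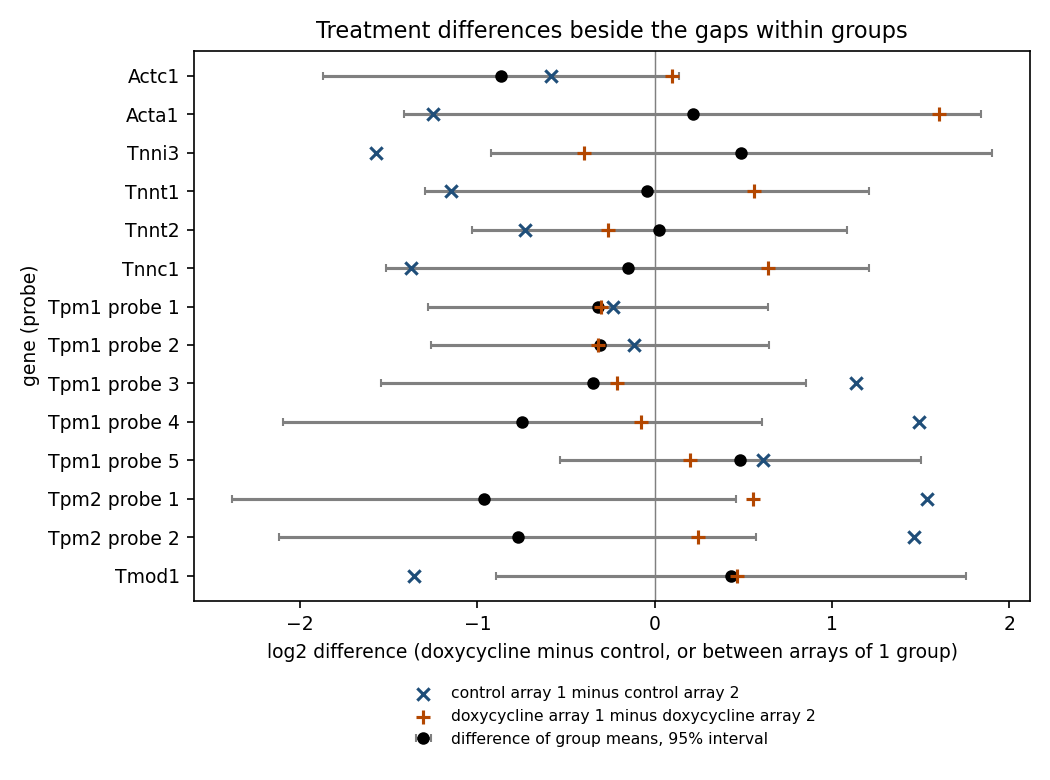
Log2 difference between group means, doxycycline minus control, with its 95% interval (black points and grey bars), beside the gap between the 2 control arrays (blue crosses) and between the 2 doxycycline arrays (orange plus signs), for each tested probe. All 14 intervals include 0, and the control gap is wider than the treatment difference for 11 probes.

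Tropomyosin was read by 5 probes for Tpm1 and 2 for Tpm2, which split into sets with different profiles. Tpm1 makes many RNA variants from 1 gene, among them striated, smooth muscle and non-muscle forms. The files list transcript NM_001164248 for the first and second Tpm1 probes, NM_001164255 for the third, NM_001164249 for the fourth and NM_001164251 for the fifth. Which variants each probe detects beyond the listed one was not tested. In what follows the probes are numbered by falling control level.

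Tpm1 probe 1 read 9.70 and 9.93 in control and 9.35 and 9.65 after doxycycline, and probe 2 read 8.86 and 8.98 against 8.45 and 8.77. On both probes the doxycycline arrays lay below the control arrays. The differences were -0.32 ± 0.40 and -0.31 ± 0.40 (SE, adjusted p = 0.961 and 0.962), and under median scaling they were 0.03 and 0.04. The fifth probe went the other way, with -2.08 and -2.68 in control and -1.80 and -1.998 after doxycycline. Its difference was 0.48 ± 0.43 (SE, adjusted p = 0.925) with both doxycycline arrays higher, and it was -0.11 with normexp correction.

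Tpm1 probes 3 and 4 were high on control array 1 and alike on the other 3 arrays. Probe 3 read 1.43 on control array 1 and 0.29, 0.41 and 0.62 on control array 2 and doxycycline arrays 1 and 2, and probe 4 read 1.29 against -0.20, -0.24 and -0.17. Their differences of -0.35 ± 0.50 and -0.75 ± 0.56 (SE, adjusted p = 0.966 and 0.913) became 0.22 and -0.00090 without control array 1, and under median scaling the first was 0.0016.

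Both probes of Tpm2, β-tropomyosin of slow skeletal, smooth and fetal heart muscle, had that profile as well. Probe 1 read 1.55 and 0.01 in control and 0.09 and -0.46 after doxycycline, and probe 2 read 0.54 and -0.92 against -0.85 and -1.09. Control array 1 was the highest on both, and control array 2 lay close to the doxycycline arrays. The differences, -0.96 ± 0.59 and -0.77 ± 0.56 (SE, adjusted p = 0.903 and 0.913), were among the largest of the 14 probes, and without control array 1 they were -0.20 and -0.04. The change in the ratio of Tpm2 to Tpm1, from the brightest probe of each, was -0.65 log2 units (exact permutation p = 0.667), against a gap of 1.77 between the control arrays, and it was 0.24 without control array 1. Over the 3 isoform pairs that could be tested, each permutation p was 1 after Benjamini-Hochberg adjustment. Endothelial and fibroblast markers exceeded their control array 2 levels on control array 1 too, by medians of 1.66 and 1.67. Smooth muscle and pericyte markers did so by a median of 1.32, except Smtn, which was lower there on both probes (-0.58 and -0.50). So did 3 of the 4 detected atrial markers (of 5, Bmp10 below background), with a median of 2.75 over the 4, while Nppa was lower there (-1.41). The part of these markers in the tropomyosin values was not tested.

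**Figure D3:**
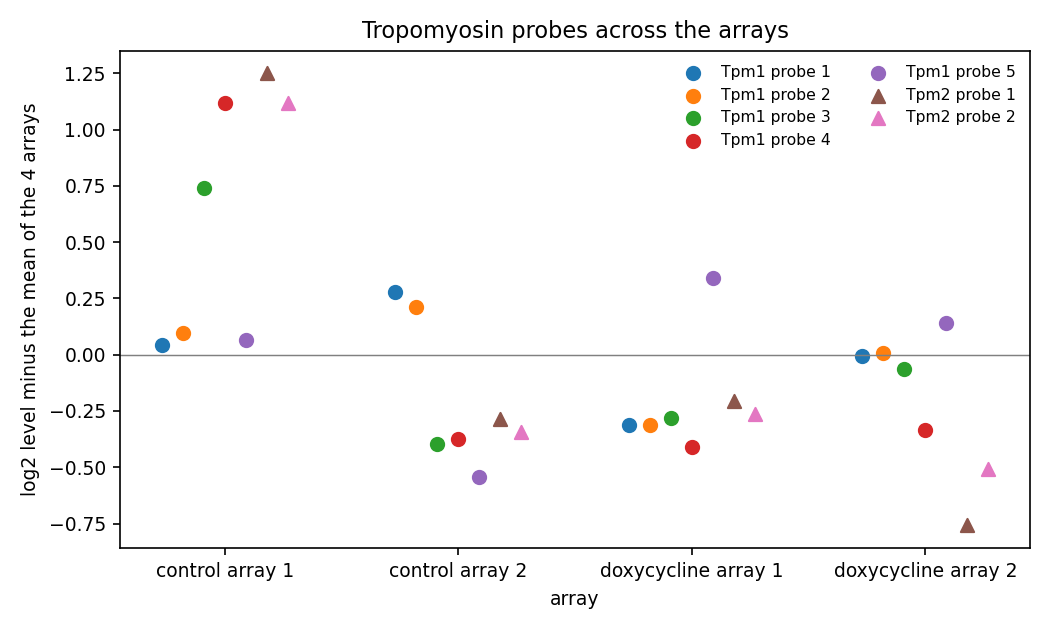
Level of each tropomyosin probe on each array (horizontal axis) minus that probe's mean over the 4 arrays (log2 units, vertical axis), with circles for Tpm1 and triangles for Tpm2. Tpm1 probes 3 and 4 and both Tpm2 probes stand at 0.74 to 1.25 on control array 1 and below 0 on the other arrays, whereas Tpm1 probes 1, 2 and 5 stand at 0.042 to 0.095 there.

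Tropomodulin 1, Tmod1, which holds filament length by capping the pointed end, read 1.503 and 2.86 in control and 2.84 and 2.38 after doxycycline. Control array 1 was again the low value, and control array 2 exceeded both treated arrays. The difference was 0.43 ± 0.55 (SE, adjusted p = 0.962), and it was -0.25 without control array 1 and 1.11 without control array 2. Red cells also contain Tmod1, and the 3 red cell markers detected were higher on control array 1, by a median of 2.31. Their part in the Tmod1 values was not tested.

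Across the tested members the control arrays differed from each other by more than the group means did for 11 of 14 probes, against 69.1% of all probes. The exceptions were Actc1 and Tpm1 probes 1 and 2. Control array 1 was below control array 2 for 9 of 14 probes, against 53.1% of all probes. These 9 were every tested actin, troponin and tropomodulin probe and the first 2 Tpm1 probes, and the 5 that were higher were the other Tpm1 probes and both Tpm2 probes. The heart muscle markers, none of them a member, were lower on control array 1 by a median of 0.94, which went with the actin, troponin and tropomodulin values, and their part was not tested. Scaled to those markers, Actc1 differed by -1.03, Tnni3 by 0.33 and Tmod1 by 0.27, none past the test.

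**Figure D4:**
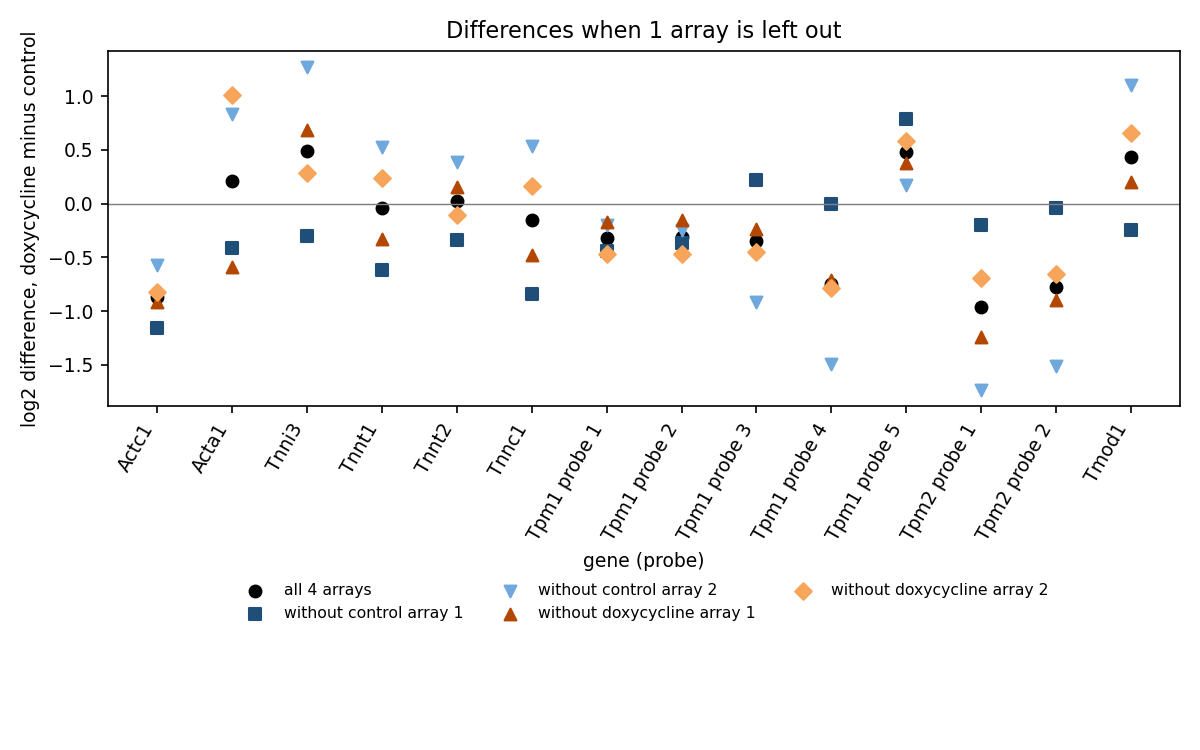
Log2 difference, doxycycline minus control (vertical axis), for each tested probe with all 4 arrays (black circles) and with 1 array left out (coloured symbols, 1 lone array then standing for a group). Actc1, both Tpm2 probes and Tpm1 probes 1, 2, 4 and 5 keep their sign in every case, and the other genes cross 0.

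The genes whose profiles over the 4 arrays lay nearest to the actins were found by Euclidean distance between mean-centred log2 levels over 12070 named genes. For Actc1 these were Rnf166 (distance 0.109), Nr2f6 (0.112) and Nudt10 (0.115). For Acta1 they were Popdc2 (0.324), Il13ra1 (0.344) and Glrx (0.366). With 4 arrays such likeness is a description of these samples alone.

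Of the other thin filament genes, a list of 24 with 40 probes, 35 probes for 21 genes were tested, and 0 passed over all probes. Differences were above 0 for 19 probes and below for 16, with a median of 0.08. At an unadjusted p under 0.05 there were 6 probes, 4 higher (3.1% of all probes) and 2 lower (3.28% of all probes), each a different gene. Both Tnnt3 probes and 1 Neb probe were detected on the doxycycline arrays alone, so that their direction was set by the filter, and nothing is read from the counts that include them. By class, differences were above 0 for 2 of 7 probes of other actins (median -0.24), 2 of 3 of other tropomyosins (0.058), 1 of 4 of pointed end proteins (-0.44) and 10 of 17 of barbed end and side proteins (0.24).

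Smooth muscle α-actin, Acta2, which immature heart muscle also contains, read 4.89 and 5.43 in control and 3.33 and 2.05 after doxycycline, a difference of -2.47 ± 0.54 (SE, 5.56-fold lower, adjusted p = 0.341). Leiomodin 3, Lmod3, an actin nucleator of striated muscle, read 3.42 and 4.61 in control and 1.83 and 1.87 after doxycycline, a difference of -2.17 ± 0.51 (SE, 4.48-fold lower, adjusted p = 0.370). Both doxycycline arrays lay below both control arrays for each. The ranges with 1 array left out were -3.12 to -1.83 for Acta2 and -2.76 to -1.57 for Lmod3. Smooth muscle and pericyte markers did not all follow Acta2. Of 7, 5 lay below control and 2 above, with a median of -0.51. Below were Pdgfrb (-0.99), Smtn (-0.72, brighter probe), Cspg4 (-0.59), Rgs5 (-0.51) and Tagln (-0.36), and above were Myh11 (0.34) and Cnn1 (1.17). Cnn1 read 0.51 and -1.80 after doxycycline against -1.72 and -1.91 in control. Fibroblast markers had a median of -2.49 with 0 of 9 higher. They were uneven. Of those detected in both groups, Lum (-3.76), Col3a1 (-3.59), Col1a1 (-2.93) and Col1a2 (-2.49) differed most. Postn (-3.24) was detected on the control arrays alone, so that its direction was set by the filter. It is included in the median and in the 0 of 9. For Dcn (-0.32), Pdgfra (-0.33), Tcf21 (-0.44) and Ddr2 (-1.10, brighter probe) the groups overlapped. The part of either list in the Acta2 value was not tested.

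Leiomodin 2, Lmod2, the cardiac leiomodin that lengthens thin filaments in opposition to tropomodulin, read -0.70 and 0.69 in control and 1.38 on both doxycycline arrays. Its difference was 1.38 ± 0.54 (SE, adjusted p = 0.755), and 0.69 without control array 1 and 2.08 without control array 2. Of the fast skeletal troponins, 2 of 4 probes were detected in both groups. Tnni2, fast troponin I, read -0.01 and 0.54 in control and 1.59 and 1.18 after doxycycline, a difference of 1.12 ± 0.43 (SE, adjusted p = 0.738). Tnnt3, fast troponin T, stayed under the detection threshold in both controls on each of its 2 probes and so entered the test through the doxycycline arrays alone. Against the lowest signal flagged as well above background on each control array, the 2 probes were 1.73-fold and 1.49-fold higher (limma adjusted p = 0.568 and 0.865). That floor, -3.69 on control array 1, is no strict bound, since Tnni1 went undetected there at -2.98. No smallest fold is therefore claimed. With normexp correction the difference of the first Tnnt3 probe was -0.04. Tnnc2, fast troponin C, differed by 0.08 ± 0.42 (adjusted p = 0.991). The skeletal myosins named above were below background on all arrays, while Pvalb, the remaining skeletal marker, was detected on all 4 on 1 of its 2 probes (difference -0.15). Their part in these values was not tested. Nebulin, Neb, which runs along the filament, differed by 0.53 ± 0.39 (SE, adjusted p = 0.913) on a dim probe detected on all arrays. A second Neb probe, detected on the doxycycline arrays alone, was 1.20-fold higher against the same floor (adjusted p = 0.581), again no strict bound. Its difference was -0.15 with normexp correction.

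**Figure D5:**
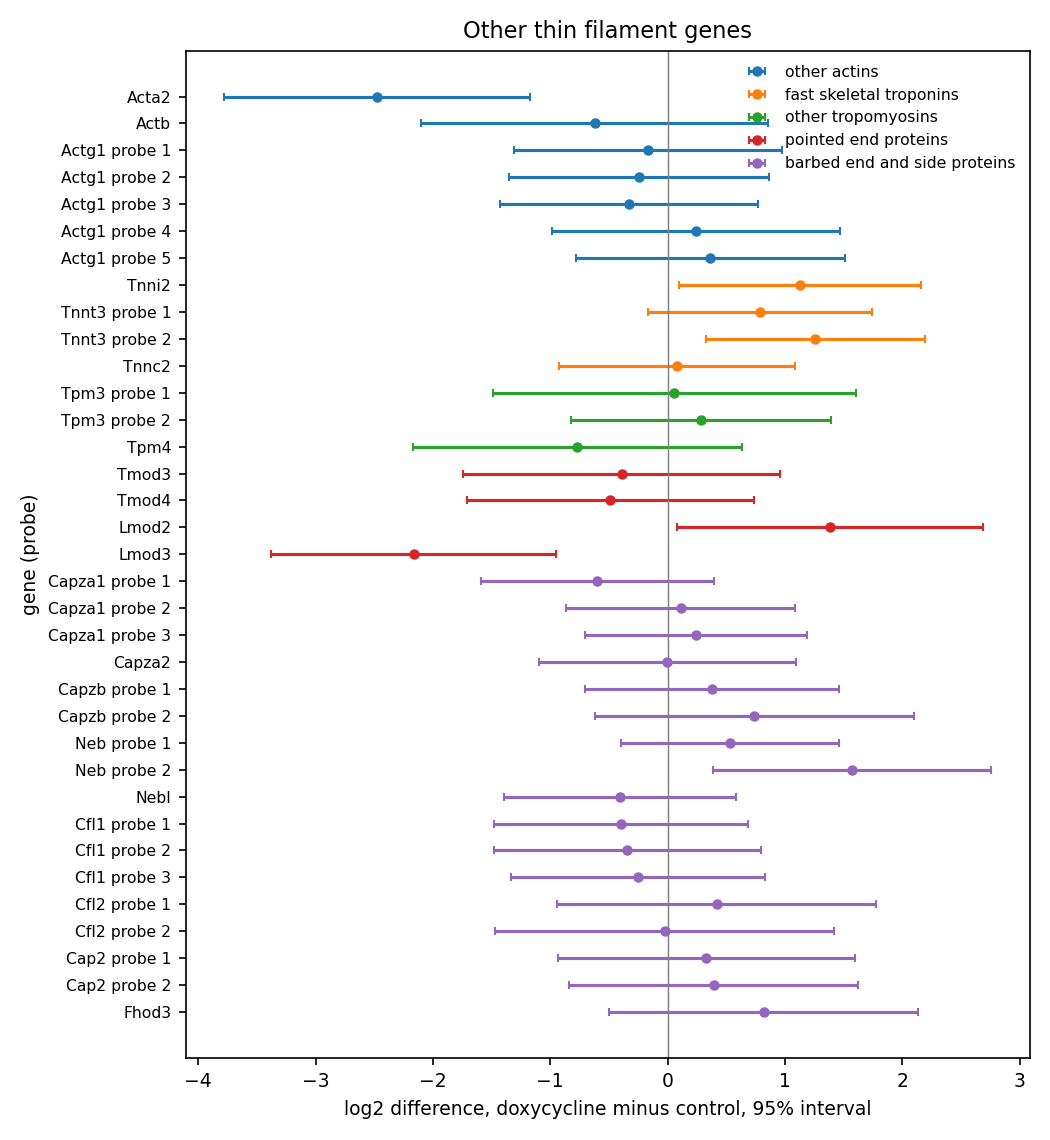
Log2 difference, doxycycline minus control, with its 95% interval (horizontal axis) for the 35 tested probes of other thin filament genes, coloured by class. The intervals, not adjusted for the number of probes, exclude 0 for 6 probes: Acta2 and Lmod3 below 0, and Tnni2, Lmod2, 1 Tnnt3 probe and 1 Neb probe above, the last pair not detected in control.

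Among 10 genes of actin transcription, 16 of 18 probes were tested, 0 passed over all probes, and 0 had an unadjusted p under 0.05. Srf, whose CArG box stands in both actin promoters shown above, read 1.31 and 2.24 in control and 1.99 and 1.31 after doxycycline on 1 probe, a difference of -0.13 ± 0.50 (SE, adjusted p = 0.989), and 0.00470 ± 0.47 on the other. Its coactivator myocardin, Myocd, differed by 0.60 ± 0.54 (SE), and by -0.08 without control array 1. The coactivator Mrtfa was lower on both doxycycline arrays on both of its probes, at -0.70 ± 0.47 and -0.58 ± 0.40 (SE, adjusted p = 0.909 and 0.912), and Mrtfb differed by 0.29 ± 0.43. Mef2d, a muscle transcription factor, was higher on both doxycycline arrays on both of its probes, at 0.84 ± 0.43 and 0.84 ± 0.44 (SE, adjusted p = 0.870 for each), and Mef2a differed by -0.48 ± 0.39. Tead1, which binds the MCAT motif, differed by 0.60 ± 0.59 on its dimmest probe and by -0.06 ± 0.43 and 0.09 ± 0.42 on the others.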

How the data were processed

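Agilent Feature Extraction 10.7.1.1 gave the deposited spot intensity of each 1-colour (Cy3) scan, per the file headers. The processed intensity is linear, with background subtraction and spatial detrending inside an array. The deposited flags and other columns mark control, outlying, saturated and well-above-background spots. The 0 saturated spots set no limit. Further steps by the authors: not given in the sources used here. Accessions were named, without versions, through RefSeq's GRCm38.p6 table (27508 of 39429 probes). Columns of other series numbered 0.

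Levels are log2 of processed intensity less the array's own 75th percentile over 43020 non-control spots. Outlying spots were dropped, and spots of a probe were averaged. Probes well above background on at least 2 arrays (in at least 0.5 of their spots) were kept, and 35 without a usable spot on some array were left out. The 20092 kept probes were tested two-sided with limma 3.58.1 in R 4.3.3 (4.60 prior and 2 residual degrees of freedom, Benjamini-Hochberg, threshold 0.05). The steps were tested on simulated arrays. Another 17 settings were tried: normexp (offset 50, on median signals), quantile and median scaling, dim-probe filters, probe summaries, variance options, array weights, leaving out each array, blocking on the replicate number, and calling probes by an unadjusted p (under 0.05) plus a log2 change of 1 or more. The 2 added after seeing the data were scaling to heart muscle markers and a crossed block. Members and lists were chosen with earlier results of these data known. Named genes are the members, up to 6 genes with the smallest p in the list of other thin filament genes and in that of actin transcription, Acta2 and the 3 genes nearest each actin. Tnnc2, Srf and single cell markers, named beside these, were chosen after their values were seen.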

Additional observations from a re-analysis of the deposited data

How the results depend on the processing

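None of the 14 member probes passed in any of the 19 alternatives, and Actc1, both Tpm2 probes and Tpm1 probe 4 kept their direction in all that were run for them. Filters, variance options, array weights, blocks and the unadjusted rule leave a probe's difference as it was, so they could not turn a direction. Over all probes, 0 passed in the main analysis, against 152 with median scaling, 31 with no filter on dim probes and 1262 by the unadjusted rule, and 0 to 92 with 1 array left out (92 without doxycycline array 2). Among the other thin filament genes 0 passed, against 6 by the unadjusted rule. Median scaling moved the median of all probes by 0.35 and heart marker scaling by -0.16. With the replicate number as a block, 364 probes passed, 2 of them other thin filament genes and 0 of them members. The 2 were Acta2 and Lmod3 (limma adjusted p = 0.00753 and 0.0332). That fit had infinite prior degrees of freedom and gave every probe the same SE of 0.62. The deviations of same-numbered arrays correlated at -0.13 across probes, so the numbers were not taken to pair arrays, and the crossed block gave 75, with 0 of the other thin filament genes.

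Directions turned with normexp for Tnnt1 (0.073), Tnnc1 (0.045), Tpm1 probe 5 (-0.11), Tnnt3 (-0.045), Neb (-0.15) and Tead1 (-0.29). They turned with median scaling for Tnnt1 (0.30), Tnnc1 (0.19) and Tpm1 probes 1, 2 and 3 (0.029, 0.039 and 0.0016), and with heart marker scaling for Tnnt2 (-0.13). With 1 array left out, the lone array of a group is assumed to vary like the other group's. The ranges that crossed 0 were -0.59 to 1.02 for Acta1, -0.30 to 1.27 for Tnni3, -0.62 to 0.53 for Tnnt1, -0.34 to 0.39 for Tnnt2, -0.84 to 0.53 for Tnnc1, -0.91 to 0.22 for Tpm1 probe 3, -0.25 to 1.11 for Tmod1, -0.081 to 1.28 for Myocd and -0.18 to 1.37 for Tead1. The isoform ratio changes ranged from -0.48 to 0.34 for Tnnt1 to Tnnt2, -1.53 to 0.24 for Tpm2 to Tpm1 and 0.33 to 1.83 for Acta1 to Actc1. The cause of these changes was not tested.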
